A study of Mus musculus with 16 samples.

Results

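The genes described are 10 genes of adipocyte differentiation: the transcription factor genes Pparg and Cebpa, the fatty acid handling genes Fabp4, Lpl and Cd36, the lipid droplet genes Plin1, Cidec and G0s2, and the secreted factor genes Adipoq and Cfd. They were taken by name, and all 10 were among the 20325 genes measured. They were followed in C3H10T1/2, a mouse cell line of mesenchymal stem character, in which a lentiviral histone H3 transgene was stably overexpressed on top of the cells' own histone genes. Transduction lasted 2 days and was followed by 4 days of selection in puromycin at 1.5 µg/ml. The medium held serum, and the labels name no inducer of adipocyte differentiation. There were 8 groups of 2 libraries each. On H3.3 the transgenes were the unchanged protein (H3.3 WT), the single changes H3.3 G34W, H3.3 G34R and H3.3 K27R, and the double changes H3.3 G34W K27R and H3.3 G34W K36R. On H3.1 they were H3.1 WT and H3.1 G34W. In these names the first letter is the amino acid replaced, the number its place in the histone and the last letter the amino acid put in. The question of the series is what a change of residue 34 in H3.3 does to transcription. The labels do not say whether both libraries of a group stem from different cultures, so the p-values cover only the spread among libraries, and this spread may be technical.

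Differentiation of a mesenchymal precursor into an adipocyte is a cascade of transcription factors. Early factors such as C/EBPβ and C/EBPδ switch on PPARγ and C/EBPα, which then maintain each other's expression and bind together at most genes of the mature cell. Those genes import and chaperone fatty acids (Lpl, Cd36, Fabp4), coat and enlarge the lipid droplet (Plin1, Cidec), restrain its breakdown (G0s2) and encode hormones and complement factors released into blood (Adipoq, Cfd).

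The promoters of these genes differed in how many CpG dinucleotides they held. RefSeq windows on GRCm38.p6, from 250 bases before to 50 bases after a transcription start, were found for 8 of the 10 genes, in 11 windows; Fabp4 and Lpl had no entry. The windows are of another build than the mm9 of the authors, so they are shown as sequence only. Over all 32851 such windows the median was 7 CpG, with quartiles of 3 and 20. Adipoq had 0, Cfd and Plin1 2 each, Cd36 3, and Cidec 6 and 7 in its 2 windows. Cebpa had 29, G0s2 13, and Pparg 44, 13 and 2 in its 3 windows. To set them side by side, 5 windows are shown: those of Adipoq, Cfd and Plin1, which were high in the same 3 libraries, and those of Cebpa and G0s2, which were graded over the groups. Capitals mark CpG, and each runs 5′ to 3′ on the strand of its gene.

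Adipoq (chr16:23146286-23146585, plus strand): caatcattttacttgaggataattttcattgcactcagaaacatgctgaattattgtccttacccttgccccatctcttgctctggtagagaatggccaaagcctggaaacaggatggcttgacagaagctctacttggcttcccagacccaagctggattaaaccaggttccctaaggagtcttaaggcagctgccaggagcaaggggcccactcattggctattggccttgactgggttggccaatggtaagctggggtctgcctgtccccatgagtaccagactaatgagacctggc

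Cfd (chr10:79890603-79890902, plus strand): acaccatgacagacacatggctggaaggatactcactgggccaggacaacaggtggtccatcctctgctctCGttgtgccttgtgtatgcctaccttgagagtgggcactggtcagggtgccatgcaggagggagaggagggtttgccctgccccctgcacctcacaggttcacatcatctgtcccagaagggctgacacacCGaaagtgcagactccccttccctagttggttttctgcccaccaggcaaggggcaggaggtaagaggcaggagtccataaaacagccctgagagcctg

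Plin1 (chr7:79732727-79733026, minus strand): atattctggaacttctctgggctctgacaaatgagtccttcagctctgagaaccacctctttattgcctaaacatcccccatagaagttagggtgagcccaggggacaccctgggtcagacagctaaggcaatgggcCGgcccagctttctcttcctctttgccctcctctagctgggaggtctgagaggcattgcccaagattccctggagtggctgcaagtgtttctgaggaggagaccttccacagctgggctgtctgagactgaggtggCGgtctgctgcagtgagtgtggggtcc

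Cebpa (chr7:35119043-35119342, plus strand): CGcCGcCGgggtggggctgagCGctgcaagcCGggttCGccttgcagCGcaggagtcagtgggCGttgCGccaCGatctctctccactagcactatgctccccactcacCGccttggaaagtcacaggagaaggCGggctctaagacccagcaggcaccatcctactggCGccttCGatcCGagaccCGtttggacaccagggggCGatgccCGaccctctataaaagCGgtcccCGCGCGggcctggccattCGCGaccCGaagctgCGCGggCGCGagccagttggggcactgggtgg

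G0s2 (chr1:193273139-193273438, minus strand): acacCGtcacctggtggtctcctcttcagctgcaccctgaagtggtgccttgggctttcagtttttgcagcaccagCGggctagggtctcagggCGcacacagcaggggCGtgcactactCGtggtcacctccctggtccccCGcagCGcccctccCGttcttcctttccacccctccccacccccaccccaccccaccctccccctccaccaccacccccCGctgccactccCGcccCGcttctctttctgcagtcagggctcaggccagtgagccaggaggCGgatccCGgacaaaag

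Known motif letters were searched on both strands of the windows. The direct repeat bound by PPARγ with RXR, which is AGGTCA, any 1 base and AGGTCA again, was in 0 of the 11 windows and in 0.0396% of all windows. A single AGGTCA, which the direct repeat also holds, was in 1 window of Cd36 and 2 of Pparg, and in 16.3% of all windows. The C/EBP letters TTGCNNAA occurred 2 times in the Plin1 window, 2 times in the third Pparg window and 1 time in a Cidec window, and in 10.8% of all windows. The TATA box letters TATAAA were in the Cebpa window and the second Pparg window, and in 13.6% of all windows. These are matches of letters only.

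Values below are the deposited values, gene-level read estimates scaled between libraries; they are not divided by gene length, so levels are compared between libraries and not between genes. A floor of 3 reads is 2.27 to 3.74 in this unit, and this bound covers counting error only. Estimated depth was 26.02 to 49.12 M reads per library, and 14275 to 15261 genes were above 0. Over 2764 genes with whole reads the H3.3 WT libraries differed by less than sampling noise (chi-square p = 0.941) and were counted as 1 sample, which has a mean and no SD; over all 12462 genes with enough reads they differed by more (chi-square p = 6.05e-63). Of the 8 pairs, 3 differed widely: over genes with whole reads the chi-square per degree of freedom was 46.7 in H3.3 G34W, 42.0 in H3.1 G34W and 32.7 in H3.1 WT, against at most 1.36 in the other 5. The SD of the log2 ratio between the libraries was 0.951, 0.788 and 0.605 in these 3 pairs. At least 8-fold higher in replicate 1 or replicate 2 were 137 and 83 genes in H3.3 G34W, 33 and 59 in H3.1 G34W and 7 and 7 in H3.1 WT. Results that rest on H3.3 G34W are therefore given with and without its libraries.

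Log2 fold changes below are on the log2(value + 1) scale, with the SE of one limma fit over all groups and p-values adjusted by Benjamini and Hochberg over 12670 genes. A gene was called at an adjusted p under 0.05. A mean of 10 or more was needed to enter the fit, and 9 of the 10 genes had it, while Cd36 had 5.68. Cfd, Plin1 and Cidec had it only through H3.3 G34W replicate 1 and the H3.3 G34W K27R libraries. Where these libraries are compared, the filter favours those genes, so counts that include them are no support beside the share of all genes. Comparisons against H3.3 WT all share that group. In these bulk libraries fewer cells of a type and less RNA per cell cannot be told apart.

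**Figure D1:**
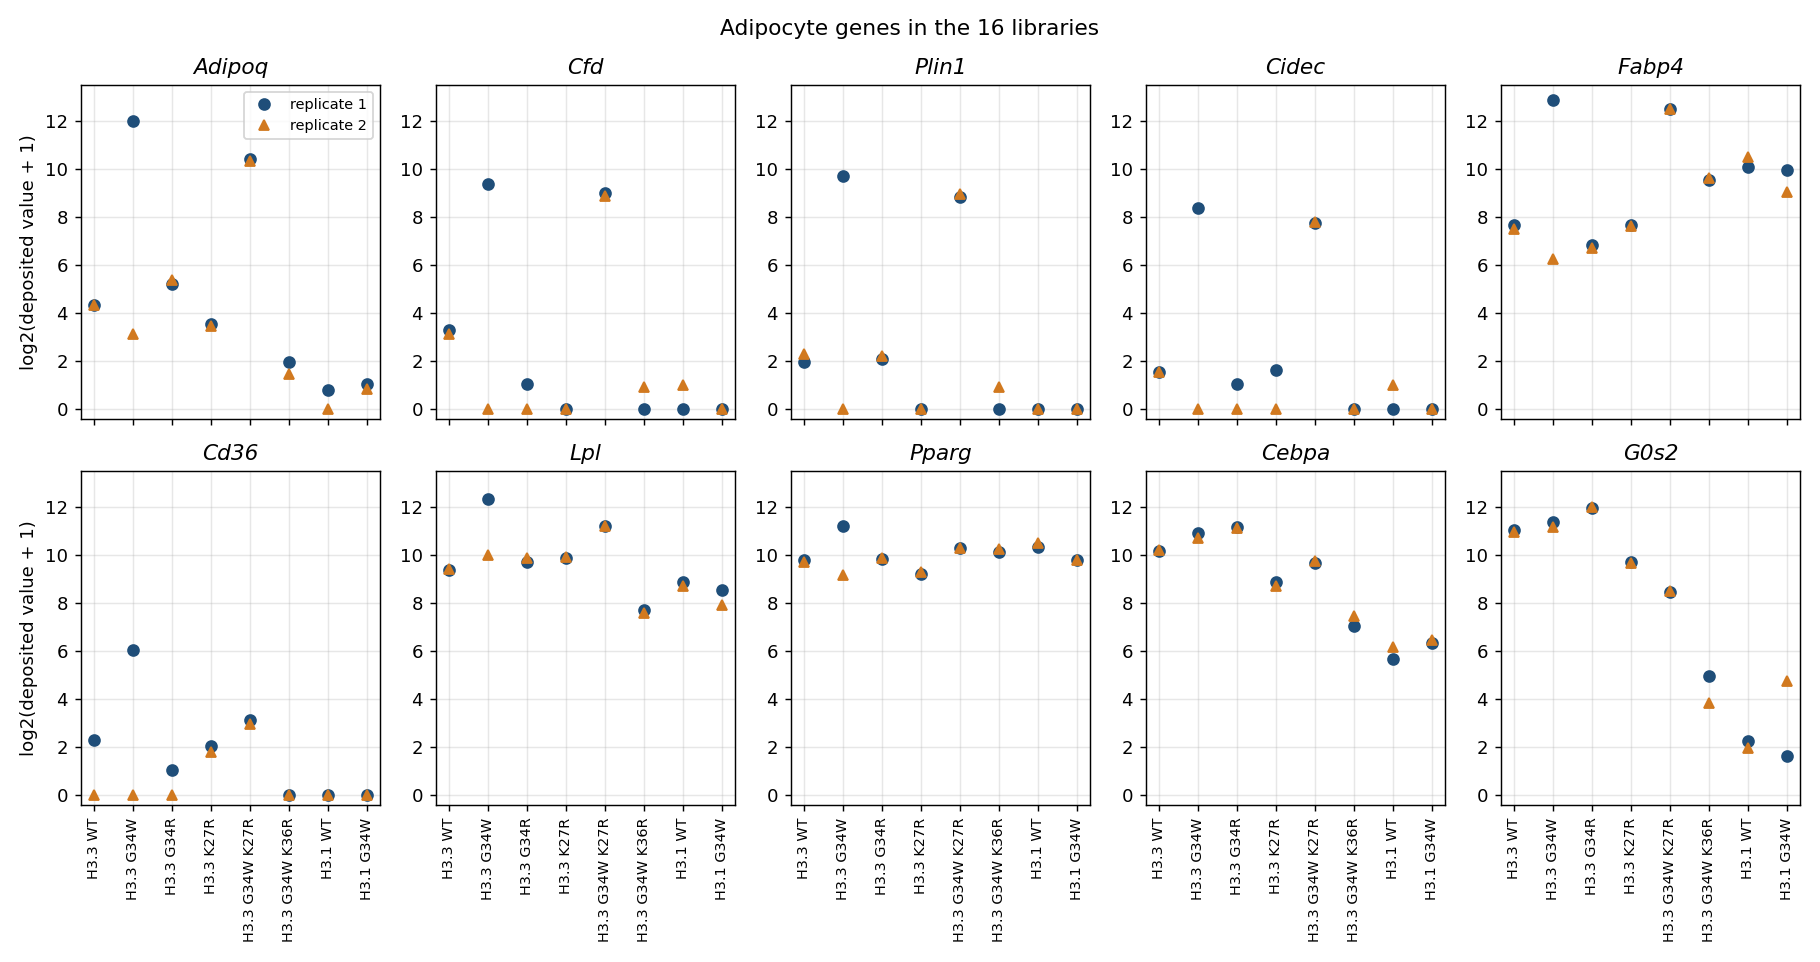
The 10 adipocyte genes in each library. The y axis is log2(deposited value + 1), the x axis the 8 groups, and each group has a circle for replicate 1 and a triangle for replicate 2. Adipoq, Cfd, Plin1, Cidec, Fabp4, Lpl and Cd36 are highest in H3.3 G34W replicate 1 and in both libraries of H3.3 G34W K27R. Cebpa and G0s2 are lowest in H3.3 G34W K36R and the H3.1 groups.

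Of the regulators, Pparg, the nuclear receptor gene that drives adipocyte differentiation, was present in all 16 libraries. It was 886 and 837.5 in the H3.3 WT libraries, 2384 and 582 in H3.3 G34W, 917 and 949.6 in H3.3 G34R, 598 and 618 in H3.3 K27R, 1257 and 1268 in H3.3 G34W K27R, 1107 and 1223 in H3.3 G34W K36R, 1307 and 1452 in H3.1 WT, and 889 and 874 in H3.1 G34W. Both the highest and the lowest of the 16 values were from H3.3 G34W, in replicate 1 and replicate 2. With all libraries in the fit Pparg was called in none of the comparisons; against H3.3 WT its log2 fold change ran from -0.50 ± 0.57 (SE; adjusted p = 0.809) in H3.3 K27R to 0.68 ± 0.57 (adjusted p = 0.384) in H3.1 WT. Without H3.3 G34W replicate 1 or 2 it was called higher than H3.3 WT in H3.3 G34W K27R (adjusted p = 0.0137 and 0.013), H3.3 G34W K36R (adjusted p = 0.0356 and 0.0341) and H3.1 WT (adjusted p = 0.00301 and 0.00284), and lower in H3.3 K27R (adjusted p = 0.0487 and 0.0468). Against H3.3 G34W, Pparg was called higher in both double changes without replicate 1 of H3.3 G34W and lower in both without replicate 2. The H3.1 WT libraries, in which Adipoq, Cfd and Plin1 were at 0 or within the floor, had more Pparg than both H3.3 WT libraries. The table sums the transcripts of a gene, so its starts are not separated.

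Cebpa, which encodes the partner of PPARγ in terminal differentiation, was graded over the groups. It was 1149 and 1169 in the H3.3 WT libraries, 1953 and 1667 in H3.3 G34W, 2304 and 2242 in H3.3 G34R, 467 and 422.5 in H3.3 K27R, 806 and 849 in H3.3 G34W K27R, 130.1 and 174 in H3.3 G34W K36R, 50.04 and 71.3 in H3.1 WT, and 79.8 and 87.8 in H3.1 G34W. In this order of means, H3.3 G34R, H3.3 G34W, H3.3 WT, H3.3 G34W K27R, H3.3 K27R, H3.3 G34W K36R, H3.1 G34W and H3.1 WT, no 2 neighbouring groups overlapped, which is not a test. The libraries of H3.3 G34W differed by 0.23 on the log2 scale for this gene.

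Among the fatty acid genes, Fabp4, which encodes the adipocyte fatty acid chaperone, was highest in H3.3 G34W replicate 1 and in H3.3 G34W K27R. It was 201 and 178 in H3.3 WT, 7417 and 74.4 in H3.3 G34W, 113 and 105 in H3.3 G34R, 204 and 194 in H3.3 K27R, 5849 and 5732 in H3.3 G34W K27R, 741.5 and 779 in H3.3 G34W K36R, 1078 and 1459 in H3.1 WT, and 987 and 527 in H3.1 G34W. The 6 libraries of H3.3 G34W K36R and the H3.1 groups were also above both H3.3 WT libraries. H3.1 WT was 6.68-fold above H3.3 WT, with a log2 fold change of 2.72 ± 1.83 that was not called (adjusted p = 0.274). The same change was called without H3.3 G34W replicate 1 or replicate 2 (adjusted p = 0.000264 and 0.000251).

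Lpl, which encodes the lipase that frees fatty acids from circulating triglyceride, was 667 and 677 in H3.3 WT, 5201 and 1034 in H3.3 G34W, 824 and 933 in H3.3 G34R, 946 and 969 in H3.3 K27R, 2334 and 2368 in H3.3 G34W K27R, 210.2 and 192 in H3.3 G34W K36R, 467 and 422 in H3.1 WT, and 369.5 and 238 in H3.1 G34W. Unlike Fabp4 it was lowest in H3.3 G34W K36R, below every library of the other 7 groups. Cd36, which encodes a fatty acid transporter, was at 65.7 in H3.3 G34W replicate 1 and at 0 in replicate 2. In H3.3 G34W K27R it was at 7.76 and 6.81, and in the other 12 libraries it lay between 0 and 3.87. The reads of H3.3 G34W K27R gave a Cd36 level 3.75 times that of H3.3 WT, with a 95% counting interval of 1.18 to 15.6.

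Of the lipid droplet genes, Plin1, which encodes the coat protein that gates lipolysis in adipocytes, was near 0 outside 3 libraries. It was 825 in H3.3 G34W replicate 1, and 453 and 501 in H3.3 G34W K27R. It was 2.90 and 3.87 in H3.3 WT, 3.23 and 3.62 in H3.3 G34R, at 0 in H3.3 G34W replicate 2 and in both libraries of H3.3 K27R, H3.1 WT and H3.1 G34W, and at 0 and 0.882 in H3.3 G34W K36R. Cidec, which encodes a protein that enlarges lipid droplets by fusion, did the same. It was 329 in H3.3 G34W replicate 1, 217 and 219 in H3.3 G34W K27R, and between 0 and 2.13 in the other 13 libraries, 1.94 in each of the H3.3 WT libraries. The ratio of H3.3 G34W K27R to H3.3 WT rested on 4 Cidec reads in H3.3 WT and was 113, with a 95% counting interval of 43.7 to 415.

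G0s2, which encodes an inhibitor of the lipase ATGL, was highest in H3.3 G34R and lowest in the H3.1 groups. It was 2092 and 1969 in H3.3 WT, 2691 and 2314 in H3.3 G34W, 3955 and 4113 in H3.3 G34R, 833.5 and 814 in H3.3 K27R, 349 and 365 in H3.3 G34W K27R, 30.3 and 13.2 in H3.3 G34W K36R, 3.79 and 2.93 in H3.1 WT, and 2.07 and 26.2 in H3.1 G34W. The H3.3 G34W and H3.3 G34R libraries were above those of H3.3 WT, and the other 5 groups below them, with H3.1 WT close to the floor. The H3.1 G34W libraries differed from each other by more than those of H3.1 WT did, and they overlapped those of H3.3 G34W K36R and H3.1 WT.

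Of the secreted factors, Adipoq, which encodes the hormone adiponectin, was 19.4 in each H3.3 WT library, 4082 and 7.65 in H3.3 G34W, 35.6 and 41.1 in H3.3 G34R, 10.6 and 9.97 in H3.3 K27R, 1358 and 1288 in H3.3 G34W K27R, 2.94 and 1.76 in H3.3 G34W K36R, 0.758 and 0 in H3.1 WT, and 1.04 and 0.770 in H3.1 G34W. The 2 libraries of H3.3 G34W thus lay on both sides of H3.3 WT. Cfd, which encodes complement factor D (adipsin), was 8.71 and 7.75 in H3.3 WT, 669 and 0 in H3.3 G34W, and 505 and 465 in H3.3 G34W K27R. In the other 10 libraries Cfd lay between 0 and 1.08, within the floor, and below both H3.3 WT libraries.

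Adipoq, Cfd, Plin1, Cidec and Fabp4 thus had their 3 highest values in the same libraries, H3.3 G34W replicate 1 and both of H3.3 G34W K27R. The 3 highest values of Lpl and Cd36 were in these libraries too. Cebpa and G0s2 were highest in H3.3 G34R and next in H3.3 G34W, replicate 1 included. Over the 16 libraries, Pearson's r of log2(value + 1) ran from 0.477 to 0.977 in the 10 pairs among the first 5 genes, and from -0.386 to 0.70 in the 10 pairs of these with Cebpa or G0s2. The libraries share groups and the low genes share values at 0, so these coefficients only describe the 16 libraries.

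The comparison of H3.3 G34W with H3.3 WT asks what the change at residue 34 did to these genes. Mean levels in H3.3 G34W were 2045 ± 2880 (SD, n = 2) for Adipoq and 3746 ± 5190 (SD, n = 2) for Fabp4, against 19.4 and 190 (means) in H3.3 WT, and the SD shows that one library carried the mean. Of the 9 genes tested, 0 were called, while 1.18% of all genes tested were. At an unadjusted p under 0.05 there were 2 of the 9, beside 1678 of the 12670 genes tested. Adipoq had a log2 fold change of 3.21 ± 2.46 (adjusted p = 0.643), Lpl 1.79 ± 0.67 (adjusted p = 0.281) and Cebpa 0.64 ± 0.25 (adjusted p = 0.302). Without replicate 1 of H3.3 G34W the change of Adipoq was -1.24 and 0 genes were called; without replicate 2 it was 7.65 and 7 of the 9 were called, all higher, with 12% of all genes called.

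The H3.3 G34W pair itself can be read gene by gene. Of the 11353 genes whose mean was 50 or more in these 2 libraries, the 4 with the largest excess in replicate 1 were Plin1, Cfd, Adipoq and Cidec, with log2 differences of 9.69, 9.39, 8.88 and 8.37. Fabp4 was the 10th (6.62), Lpl the 200th (2.33) and Pparg the 259th (2.03). Cebpa (0.23) and G0s2 (0.22) were near the middle of the spread. Of the 9 tested genes, 5 were at least 8-fold higher in replicate 1 and 0 in replicate 2, against 1.08% and 0.655% of all genes tested. Plin1, Cfd and Cidec were at 0 in replicate 2, so they reached the mean of 50 only through replicate 1. They also entered the fit only through replicate 1 and H3.3 G34W K27R. The ranks and the count are therefore favoured by these filters and are no support beside the share of all genes. A difference between 2 libraries has no test.

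**Figure D2:**
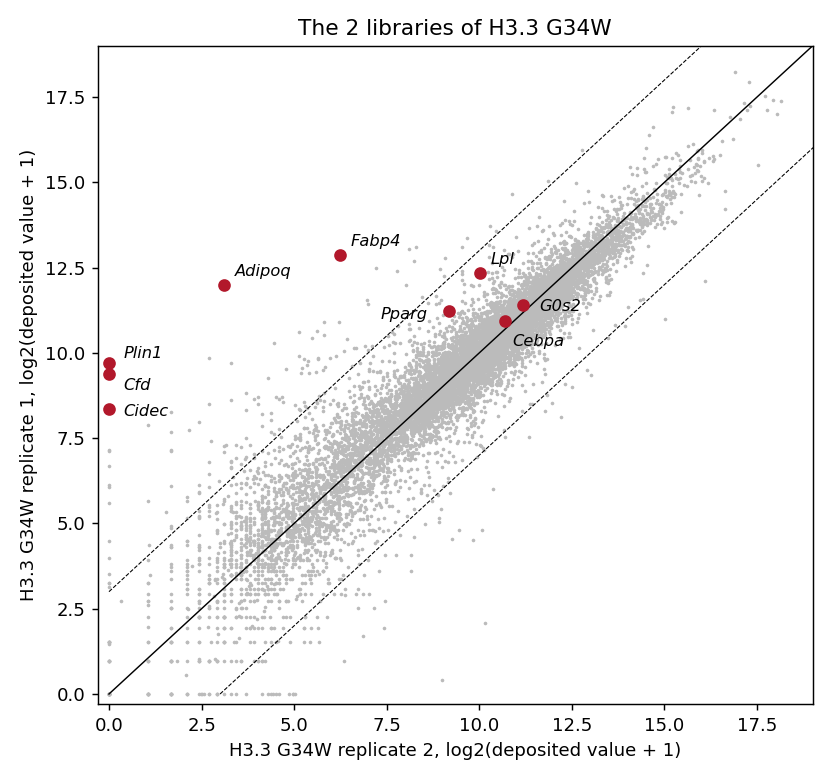
Each gene tested in the 2 libraries of H3.3 G34W. The x axis is replicate 2 and the y axis replicate 1, both as log2(deposited value + 1); the solid line marks equal values, the dashed lines 8-fold differences, and red points the 9 adipocyte genes tested. Plin1, Cfd and Cidec lie at 0 in replicate 2, while Cebpa and G0s2 lie by the line of equal values.

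H3.3 G34R is the change of the same residue to arginine. In its libraries Adipoq, Cfd, Plin1, Cidec, Fabp4 and Lpl were below both libraries of H3.3 G34W K27R, and G0s2 was above them. Adipoq was 1.98-fold H3.3 WT (38.3 ± 3.89, SD, n = 2, against 19.4), Plin1 1.01-fold with a 95% counting interval of 0.28 to 3.5, Cfd 0.0692-fold with an interval of 0.00166 to 0.442, and Fabp4 0.575-fold. Of the 9 genes, 0 were called, against 2.72% of all genes. Cebpa came nearest, at 2273 ± 43.6 (SD, n = 2) against 1159, a log2 fold change of 0.97 ± 0.25 (adjusted p = 0.0728). It was called without H3.3 G34W replicate 1 or 2 (adjusted p = 0.0416 and 0.0415), without H3.1 WT replicate 1 or 2 (adjusted p = 0.0307 and 0.0311) and with the H3.3 WT libraries counted separately (adjusted p = 0.00802). Cfd was called lower without H3.3 G34W replicate 1 or 2 (adjusted p = 0.0425 and 0.0354), when 7.78% and 7.79% of all genes were called. G0s2 was 1.99-fold H3.3 WT, with a log2 fold change of 0.99 ± 0.94 (adjusted p = 0.72).

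In H3.3 K27R, Cebpa fell. Its level was 445 ± 31.2 (SD, n = 2) against 1159 in H3.3 WT, and Cebpa fell by 1.38 ± 0.25 on the log2 scale (adjusted p = 0.0162). It was the 1 gene of 9 called, where 2.75% of all genes were called. Without H3.3 G34W replicate 1 or 2, 4 were called, Cebpa, Cfd, Plin1 and Pparg, all lower, against 6.95% and 6.96% of all genes. The call of Cebpa was lost without H3.3 K27R replicate 1 or 2 (adjusted p = 0.0841 and 0.122) and with each of the 5 close pairs of libraries counted as 1 sample (adjusted p = 1), the pairs being those of H3.3 WT, G34R, K27R, G34W K27R and G34W K36R. G0s2 was 0.406-fold H3.3 WT, with a log2 fold change of -1.30 ± 0.94 (adjusted p = 0.641). Cfd was at 0 in both libraries, at least 2.38-fold lower than H3.3 WT, taking 3 reads per library at 0 as the floor. Plin1 was also at 0, against 7 reads in H3.3 WT. The same bound for Plin1 was 0.978, so no fall of Plin1 is assured by its reads.

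With G34W and K27R on one histone, Adipoq, Cfd, Plin1, Cidec, Fabp4 and Lpl were high in both libraries. The ratio of means to H3.3 WT was 141 for Plin1, 68.3 for Adipoq, 58.9 for Cfd, 30.5 for Fabp4 and 3.5 for Lpl. For these 5 genes, Cidec and Pparg both libraries were above both of H3.3 WT. The share of all genes that separated in this way is not given here, so the separation only describes the values. Cebpa and G0s2 went the other way, to 0.714-fold and 0.176-fold. The fit over all groups called 0 of the 9 genes, against 14.3% of all genes. At an unadjusted p under 0.05 there were 6 of the 9, beside 3506 of the 12670 genes tested. The log2 fold change was 6.77 ± 2.69 for Plin1 (adjusted p = 0.129), 6.02 ± 2.46 for Adipoq (adjusted p = 0.139) and 4.92 ± 1.83 for Fabp4 (adjusted p = 0.105). The H3.3 G34W pair takes part in the shared spread of that fit. Cfd, Plin1 and Cidec entered the fit only because they were high in this group and in H3.3 G34W replicate 1. Counts of genes called higher here are therefore favoured by the filter. Without H3.3 G34W replicate 1 or replicate 2, 7 of the 9 genes were called, all higher, against 22.8% of all genes; Adipoq then had an adjusted p of 2.74e-05 and 1.99e-05, and Plin1 of 3.96e-05 and 2.46e-05. With the H3.3 WT libraries counted separately 6 were called, 5 higher and G0s2 lower, and the share of all genes called in that fit is not given here.

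The level of G0s2 in H3.3 G34W K27R, 357 ± 11.0 (SD, n = 2) against 2031, had a log2 fold change of -2.50 ± 0.94 (adjusted p = 0.106). It was called without H3.1 G34W replicate 1 or 2 (adjusted p = 0.00198 and 0.00204), the pair in which G0s2 itself varied most, with a pseudocount of 5 (adjusted p = 0.0314) and under quantile normalization (adjusted p = 0.0444).

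**Figure D3:**
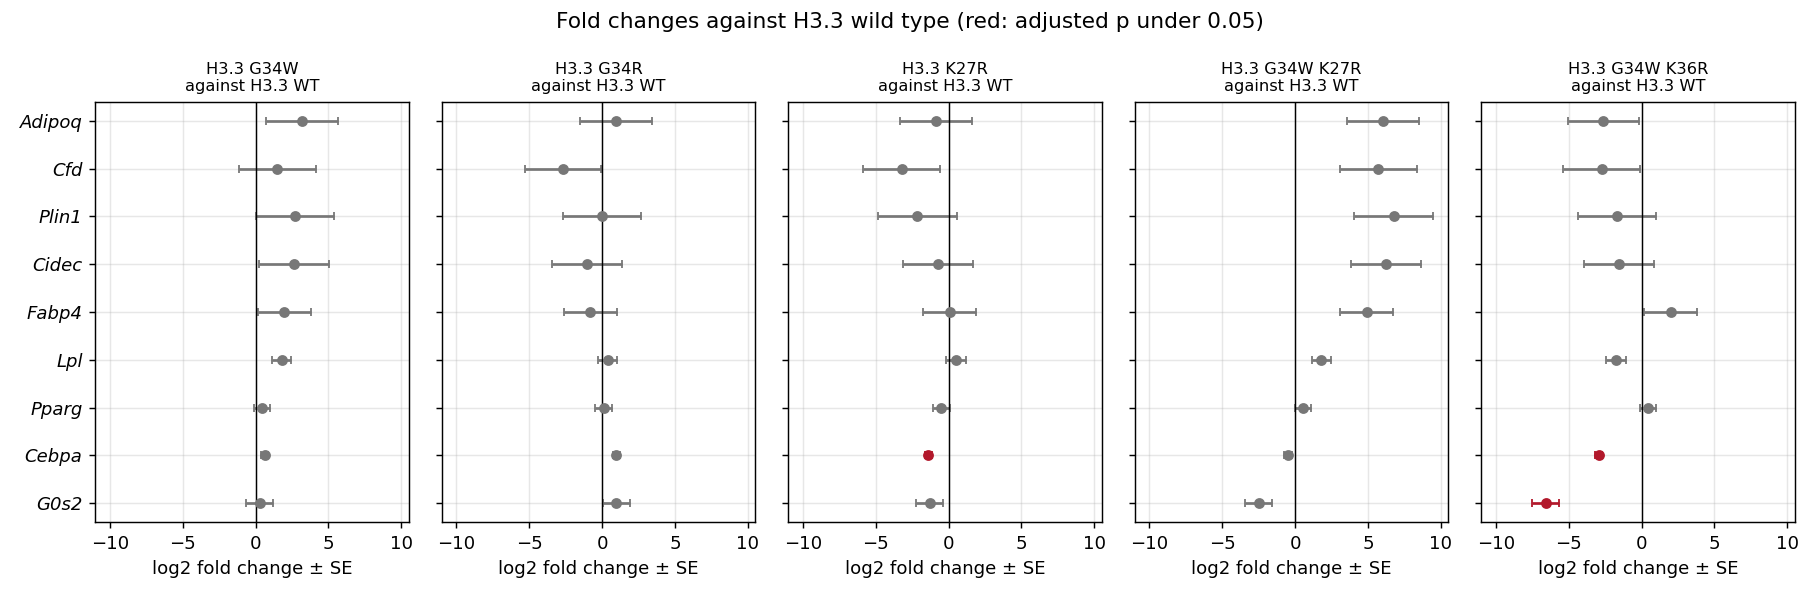
Log2 fold changes of the 9 tested genes against H3.3 WT. Points are the estimates on the log2(value + 1) scale, bars one SE of the limma fit to either side, and red marks an adjusted p under 0.05. Cebpa is red in H3.3 K27R, and Cebpa and G0s2 are red in H3.3 G34W K36R, while the SE of Adipoq, Cfd, Plin1 and Cidec is 2.41 or more.

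With G34W and K36R on one histone, Cebpa and G0s2 fell. Cebpa was at 152 ± 30.8 (SD, n = 2) against 1159 in H3.3 WT, a log2 fold change of -2.94 ± 0.25 (adjusted p = 0.000103). G0s2 was at 21.8 ± 12.1 (SD, n = 2) against 2031, a log2 fold change of -6.59 ± 0.94 (adjusted p = 0.00167). These were the 2 genes of 9 called, both lower, against 17.1% of all genes; neither was called with the 5 close pairs counted as 1 sample each (adjusted p = 0.0763 and 0.13). Without H3.3 G34W replicate 1 or 2, 8 of the 9 genes were called, 2 higher and 6 lower, against 26.2% of all genes. Lpl, at 0.299-fold, had a log2 fold change of -1.74 ± 0.67 (adjusted p = 0.105) and was called in both of those fits (adjusted p = 0.00099 and 0.00097) and with the H3.3 WT libraries counted separately (adjusted p = 0.0256). Adipoq was 0.12-fold H3.3 WT, with a 95% counting interval of 0.0369 to 0.303, while Fabp4 was 4.01-fold. Plin1 was 0.137-fold with an interval of 0.00304 to 1.07, and Cidec was at or under the floor in both groups. A call of Plin1 or Cidec as lower here thus rests on few reads.

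The double changes were also set against H3.3 G34W, to ask what the second residue added. In H3.3 G34W K27R, Cebpa fell by 1.12 ± 0.20 on the log2 scale (adjusted p = 0.00314) and G0s2 fell by 2.80 ± 0.76 (adjusted p = 0.0254), the 2 genes of 9 called, against 21.6% of all genes. The call of G0s2 was lost without H3.3 G34W replicate 1 or 2 (adjusted p = 0.0774 and 0.0584) and without H3.3 G34W K27R replicate 1 or 2 (adjusted p = 0.121 and 0.113). There were 8 genes called without H3.3 G34W replicate 1, of which 7 were higher in H3.3 G34W K27R, against 26.3% of all genes; without replicate 2, 4 were called, all lower, against 26.1%. The direction of most calls therefore depended on which library of H3.3 G34W was kept.

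In H3.3 G34W K36R, 3 of the 9 genes fell relative to H3.3 G34W, against 30.6% of all genes called. Cebpa fell by 3.58 ± 0.20 on the log2 scale (adjusted p = 5.15e-06), G0s2 fell by 6.89 ± 0.76 (adjusted p = 0.000211) and Lpl fell by 3.52 ± 0.55 (adjusted p = 0.0014). Without H3.3 G34W replicate 1 there were 6 calls, 2 higher and 4 lower, against 29.2% of all genes, and without replicate 2 all 9 were called lower, against 36.3%. Cebpa and G0s2 kept their calls with the 5 close pairs counted as 1 sample each (adjusted p = 0.0164 and 0.0424), and Lpl did not (adjusted p = 0.121). Adipoq, 2.35 ± 0.829 (SD, n = 2) against 2045 ± 2880, had a log2 fold change of -5.83 ± 2.00 (adjusted p = 0.05002), which was -1.39 without H3.3 G34W replicate 1 and -10.3 without replicate 2.

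The H3.1 groups hold the canonical histone in place of the variant. Plin1 was at 0 in H3.1 WT, and Cidec was at or under the floor in H3.1 WT and H3.3 WT. Any call of Plin1 or Cidec between these groups thus rests on few reads. H3.1 WT had Cebpa at 60.7 ± 15.1 (SD, n = 2) against 1159 in H3.3 WT, a log2 fold change of -4.26 ± 0.25 (adjusted p = 4.89e-06). G0s2 was at 3.36 ± 0.607 (SD, n = 2) against 2031, a log2 fold change of -8.87 ± 0.94 (adjusted p = 0.000139). These 2 of 9 genes were called, against 33.4% of all genes, and kept their calls with the 5 close pairs counted as 1 sample each (adjusted p = 0.00408 and 0.00902). In the fits without H3.3 G34W replicate 1 or 2, 7 genes were called, 2 higher and 5 lower, against 42.8% and 42.7% of all genes.

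Between H3.1 G34W and H3.1 WT no gene was called: limma called 0 of 12670 genes, 0% of those tested, with 2015 at an unadjusted p under 0.05. Of the 9 adipocyte genes 1 had an unadjusted p under 0.05, Cebpa, with 83.8 ± 5.65 (SD, n = 2) against 60.7 ± 15.1 and a log2 fold change of 0.48 ± 0.20 (adjusted p = 0.307). Adipoq, Cfd and Cidec were at or under the floor and Plin1 and Cd36 at 0 in both groups, so no fold is given. G0s2 had a log2 fold change of 1.07 ± 0.76 (adjusted p = 0.449), which was -0.50 without H3.1 G34W replicate 2 and 2.65 without replicate 1, when it was called (adjusted p = 0.00317). Whether G34W acted differently on H3.3 and H3.1 was tested as an interaction, which called 0 of the 9 genes, against 0.197% of all genes. Lpl came nearest, with 2.37 ± 0.87 on the log2 scale (adjusted p = 0.373). Without H3.3 G34W replicate 2 the interaction called 7 of the 9 genes, all higher, and 6.28% of all genes (adjusted p = 0.000548 for Lpl); without replicate 1 it called 0 of the 9.

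Other genes of the pathway were taken by list. Of the late adipocyte products, 15 of 20 were tested. In H3.3 G34W K27R against H3.3 WT 3 rose and 0 fell, beside 14.3% of all genes called, and the list's median log2 fold change was 1.73, against -0.01 for all genes. Genes of the list that were low in all libraries were left out, and Adrb3 entered only through libraries where it was high. The filter thus favours a higher median in H3.3 G34W K27R, which is no support by itself. Gpd1, which makes the glycerol backbone of triglyceride, was at 1155 and 1223 against 43.6 and 33.9; Adrb3, the β3-adrenergic receptor gene, at 130.9 and 151 against 3.87 in each library; and Aqp7, a glycerol channel gene, at 75.8 and 89.6 against 7.18 and 9.24. Their log2 fold changes were 4.90 ± 1.39, 4.86 ± 1.12 and 3.18 ± 0.80 (adjusted p = 0.0408, 0.0161 and 0.0255). All 3 lost their call without H3.3 G34W K27R replicate 1 or 2 (adjusted p from 0.0656 to 0.138). Gpd1 also lost it without either library of H3.3 G34R, H3.3 K27R, H3.3 G34W K36R or H3.1 WT (adjusted p from 0.0567 to 0.0657). The same 3 genes were at 1374, 107 and 79.7 in H3.3 G34W replicate 1 and at 43.7, 10.9 and 12.1 in replicate 2. In the other comparisons against H3.3 WT at most 1 of the 15 was called each way; Dgat2, the gene of the last step of triglyceride synthesis, fell in H3.3 G34W K36R (log2 fold change -2.99 ± 0.34, adjusted p = 0.000465) and in H3.1 WT (-3.64 ± 0.34, adjusted p = 6.9e-05).

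Of the 18 early regulators tested, 1 rose and 0 fell in H3.3 G34W K27R, 0 rose and 2 fell in H3.3 G34W K36R, and 1 rose and 6 fell in H3.1 WT, each against H3.3 WT. Of all genes 14.3%, 17.1% and 33.4% were called in these comparisons. Zfp423, which encodes a factor of preadipocyte commitment, was at 288.5 and 306 in H3.3 WT, 54.8 and 40.5 in H3.3 G34W K36R, and 5.31 and 2.93 in H3.1 WT. It fell by 2.63 ± 0.56 on the log2 scale in the first comparison (adjusted p = 0.0116; 0.0682 without H3.3 G34W K36R replicate 2) and fell by 5.90 ± 0.56 in the second (adjusted p = 7.8e-05). Cebpd fell by 2.21 ± 0.37 in H3.1 WT (adjusted p = 0.00177), from 5106 to 1115. Egr2, which encodes an early factor of the cascade, rose by 3.07 ± 0.66 in H3.3 G34W K27R (adjusted p = 0.0114), from 62.5 to 533. That call was lost without either library of H3.3 G34W K27R. Egr2 rose more in H3.3 G34R, to 999, by 3.98 ± 0.66 (adjusted p = 0.01235), so its rise was not particular to H3.3 G34W K27R.

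Inhibitors of adipogenesis moved both ways. Of 14 tested, 3 rose and 3 fell in H3.3 G34W K27R, and 5 rose and 1 fell in H3.3 G34W K36R, against H3.3 WT, beside 14.3% and 17.1% of all genes called. Dlk1, which encodes the preadipocyte factor Pref-1, was at 441 and 425 in H3.3 G34W K36R against 22.3 and 16.5, a rise of 4.41 ± 0.78 on the log2 scale (adjusted p = 0.00487). It was 135 in H3.3 G34W replicate 1 and 582 in replicate 2. Wnt6 and Wnt10b, ligands of an inhibitory pathway, had means of 21.8 and 25.7 in H3.3 WT. In H3.1 WT Wnt6 fell by 3.61 ± 0.60 on the log2 scale (adjusted p = 0.00169), and Wnt10b was not called. Both fell in H3.3 G34W K27R, to means of 2.08 and 6.11, that of Wnt6 within the floor. The log2 fold changes in H3.3 G34W K27R were -2.89 ± 0.60 (adjusted p = 0.0096) and -1.95 ± 0.45 (adjusted p = 0.017). Wnt6 lost its call without replicate 2 of that group (adjusted p = 0.0512) and Wnt10b without replicate 1 (adjusted p = 0.107).

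Lists of lipid metabolism were read in the same way. Of 17 fatty acid and triglyceride synthesis genes, 0 rose and 1 fell in H3.3 G34W K27R against H3.3 WT, and 0 rose and 8 fell against H3.3 G34W, beside 14.3% and 21.6% of all genes called. Elovl6, an elongase gene, fell by 2.27 ± 0.24 on the log2 scale in the latter (adjusted p = 9.97e-05), and Fads2, a desaturase gene, fell by 1.91 ± 0.26 (adjusted p = 0.000532). Of 11 lipolysis and droplet coat genes, 1 rose and 0 fell in H3.3 G34W K27R against H3.3 WT, where 14.3% of all genes were called. Mgll, the gene of the lipase that ends lipolysis, fell in H3.3 G34W K36R (log2 fold change -3.40 ± 0.31, adjusted p = 0.000156) and in H3.1 WT (-2.57 ± 0.31, adjusted p = 0.000293). Of 12 genes that handle lipoprotein and fatty acids, 1 rose and 0 fell in H3.3 G34W K27R, 3 rose and 0 fell in H3.3 G34W K36R and 4 rose and 0 fell in H3.1 WT, beside 14.3%, 17.1% and 33.4% of all genes called.

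Of 9 complement genes, the family that Cfd acts in, 2 rose and 0 fell in H3.3 G34W K27R against H3.3 WT, beside 14.3% of all genes called. Cfb, the substrate of factor D, rose from 55.2 to 3513, by 5.97 ± 0.32 on the log2 scale (adjusted p = 4.58e-06), and Serping1, an inhibitor gene, by 3.37 ± 0.68 (adjusted p = 0.00818). Cfb also rose against H3.3 WT in H3.3 G34R, by 2.54 ± 0.32 (adjusted p = 0.00336), and in H3.3 K27R, by 2.21 ± 0.32 (adjusted p = 0.00527). In H3.1 WT its log2 fold change was -1.31 ± 0.32 (adjusted p = 0.0113). Serping1 also rose in H3.3 G34W K36R, by 2.22 ± 0.68 (adjusted p = 0.0479). C3 went the other way, from 21270 in H3.3 WT to 4013 in H3.3 G34W K27R. That change was not called (log2 fold change -2.41 ± 1.07, adjusted p = 0.174). C3 was called lower than H3.3 WT in H3.3 K27R (adjusted p = 0.0424), H3.3 G34W K36R (adjusted p = 0.0331) and H3.1 WT (adjusted p = 0.000513). In the H3.3 G34W pair, where Cfd was 669 and 0, Cfb was 115 in replicate 1 and 75.5 in replicate 2. Of 12 genes of brown and beige adipocytes 2 passed the filter, and Ucp1 lay between 0 and 3.11 in all libraries. With the 5 close pairs counted as 1 sample each, 12 of 18 calls named here for pathway genes were lost. The 6 kept were those of Dgat2, Mgll, Zfp423 and Cebpd in H3.1 WT, of Cfb in H3.3 G34W K27R against H3.3 WT and of Elovl6 against H3.3 G34W. The further calls of Egr2, Wnt6, Cfb, Serping1 and C3 in groups other than H3.3 G34W K27R were not among these 18.

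**Figure D4:**
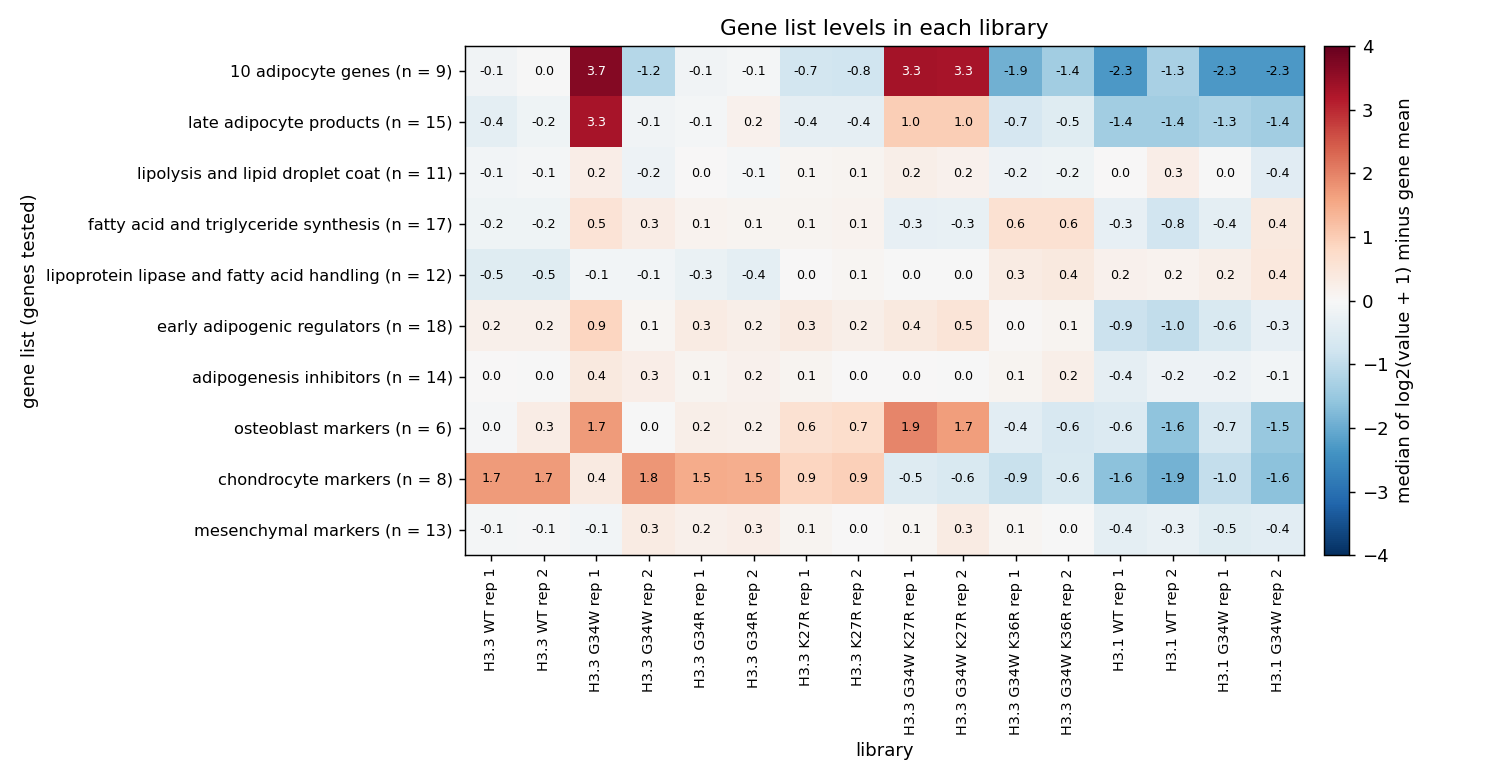
Levels of gene lists in each library. Each cell is the median over the tested genes of a list of log2(value + 1) minus the gene's mean over all libraries, on a color scale from -4 to 4. The 10 adipocyte genes and the late adipocyte products are highest in H3.3 G34W replicate 1 and both libraries of H3.3 G34W K27R, while lists of fat synthesis, lipolysis and inhibitors stay within 1 log2 unit.

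Markers of other cells were read in the same libraries. The 14 mesenchymal markers summed to 579400 to 984400 per library, and Col1a1 and Pdgfra were present in all 16, as the labelled cell type has. The 11 macrophage markers in the table summed to 217 to 441, to 262 and 428 in the H3.3 G34W libraries and to 317 and 341 in those of H3.3 G34W K27R, with Ptprc between 0 and 2.13 and Emr1 between 0 and 1.21. Other markers of the list were present. Mean Cd14 was 298 in H3.3 WT, 152 in H3.3 G34W and 214 in H3.3 G34W K27R. Lyz2 was 88.2, 106 and 12.2 in the same order, and Cd68 24.2, 38.2 and 47.1. The 10 endothelial markers summed to 1548 in H3.3 G34W replicate 1, 5344 in replicate 2, 2302 and 2337 in H3.3 G34W K27R and 2180 and 2190 in H3.3 WT, and the sum was mostly Tek and Flt1; Pecam1 lay between 0 and 9.39 and Emcn between 0 and 1.09. The part of the endothelial markers in the difference between the H3.3 G34W libraries was not tested.

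The genes outside the set whose pattern was most like it were found by Pearson's r between log2(value + 1) and the mean z-score of the 9 tested genes over the 16 libraries. That mean was 1.84 in H3.3 G34W replicate 1, 1.27 in each library of H3.3 G34W K27R, -0.317 in H3.3 G34W replicate 2 and at most 0.073 elsewhere. The highest were Cybasc3 (r = 0.966), Slc36a2 (0.963), Gpd1 (0.958), Galntl1 (0.953), Retn (0.949), Cyp2f2 (0.947), Lgals12 (0.941), Ppap2b (0.94), Ppt1 (0.938) and Adrb3 (0.935). Retn, the gene of the hormone resistin, was 139.8 in H3.3 G34W replicate 1, 68.8 and 68.1 in H3.3 G34W K27R, and between 0 and 1.25 elsewhere. The 16 libraries share 8 groups, so the coefficients carry no test.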

How the data were processed

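The data are 16 polyadenylated RNA libraries of C3H10T1/2 cells, grouped by the labels into 8 histone transgenes with 2 libraries each. The deposited signal is a gene-level estimate made with RSEM 1.2.4 on mm9, per the submitters' processing notes, and median-normalized, per the file name; aligner, annotation and filters are not given in the sources used here. Estimated reads were whole within 0.01 for 41.5% to 47.6% of values above 0, so no count model was run. A second deposited table of 180 genes holds 0 of the 10 genes and was not used further. The members and gene lists were chosen with earlier results of these data known, and genes were named by a rule set with them: all members, up to 4 called genes a list with the largest changes, the 10 genes most like the members, and the 10 genes most different each way between the H3.3 G34W libraries with a mean of at least 50.

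Genes with a mean of 10 or more, 12670 in all, entered limma as log2(value + 1): limma 3.58.1 in R 4.3.3 (eBayes with trend and robust, statmod 1.5.0), two-sided, in one fit of 15 samples with 7 residual degrees of freedom. On simulated data for H3.3 G34W K27R against H3.3 WT over 12670 genes 29.9% of 2-fold changes were found, 70.3% of 4-fold ones and 85.6% of 8-fold ones, beside 6 false calls on average. Counting intervals are exact at 95%, and intervals and floors cover counting error only. Alternatives were pseudocounts of 0.5 and 5, no filter, a minimum mean of 50, quantile normalization, rescaling by trimmed means of M-values (TMM, coded directly), plain eBayes with neither trend nor robust, the compared groups alone, H3.3 WT libraries counted separately, a replicate block, close pairs as 1 sample, and leaving out each library.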

Additional observations from a re-analysis of the deposited data

How the results depend on the processing

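Each count of adipocyte genes called was recomputed. Leaving out 1 library at a time, it ran from 0 to 7 for H3.3 G34W against H3.3 WT, 0 to 2 for H3.3 G34R, 0 to 4 for H3.3 K27R, 0 to 7 for H3.3 G34W K27R, 2 to 8 for H3.3 G34W K36R, 2 to 7 for H3.1 WT and 0 to 1 for H3.1 G34W against H3.1 WT. Against H3.3 G34W it ran from 1 to 8 for H3.3 G34W K27R and from 3 to 9 for H3.3 G34W K36R, and for the interaction from 0 to 7. The largest of these counts came without a library of H3.3 G34W, except in H3.1 G34W (without its replicate 1). Without one library of that pair its spread leaves the fit, and the remaining library is taken to vary as other groups do. The share of all genes called also differed in those fits, so the ranges describe the fits and are no result about the adipocyte genes. Of the 90 changes of the 9 tested adipocyte genes in 10 comparisons, 28 turned sign when some library was left out, 22 of them without a library of H3.3 G34W, and 0 of them had been called. Adipoq in H3.3 G34W ran from -1.24 to 7.65 and G0s2 in H3.1 G34W from -0.50 to 2.65.

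In H3.3 G34R against H3.3 WT 1 gene was called under quantile normalization, 1 with the H3.3 WT libraries counted separately and 1 with the replicate block added. In H3.3 G34W K27R against H3.3 WT 1 was called with a pseudocount of 5, 1 under quantile normalization, 6 with separate H3.3 WT libraries and 6 with the replicate block added. The share of all genes called under these settings is not given here, so the counts describe the settings and are no result about the adipocyte genes. With each close pair as 1 sample, 0 were called in H3.3 K27R, 0 in H3.3 G34W K36R and 0 in H3.3 G34W K27R against H3.3 G34W; the cause was not tested. Replicate numbers did not pair the libraries: their replicate differences correlated at -0.265 to 0.0598 across 28 group pairs. No other alternative than those named moved a count of called adipocyte genes past 1.5 times. Scaling alternatives moved the median of all genes by at most 0.042 on the log2 scale. Depth limits Cfd, Plin1, Cidec and Cd36, which outside 3 libraries rested on few reads or none.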

Other observations

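Genes outside the adipocyte set also separated the H3.3 G34W libraries. Besides the adipocyte genes, those most in excess in replicate 1 were Cyp2f2, Rangrf, Retn, Car3, Slc36a2, Adamts8, Esm1, Lgals12, Adamts17 and Wnt11, with log2 differences of 7.17 to 5.81. Of these, Esm1, the gene of a proteoglycan of endothelial cells, was 830 in replicate 1, 8.75 in replicate 2, 599 and 624 in H3.3 G34W K27R, and 40.7 and 48.0 in H3.3 WT. Adamts8, a protease gene, was 308 and 2.19 in H3.3 G34W but 4.25 and 7.78 in H3.3 G34W K27R. Higher in replicate 2 were Amd1, Krt14, Stmn2, Mal, Arhgef26, Pkp1, Vwf, C1qtnf3, Hapln1 and Zcchc5. Krt14, a keratin gene of basal epithelium, was 2.82 in replicate 1, 171 in replicate 2, 775 and 782 in H3.3 WT, and 1.11 and 1.95 in H3.3 G34W K27R. Hapln1, a cartilage link protein gene, was 11.3 in replicate 1, 283 in replicate 2, 930.1 and 911 in H3.3 WT, and 2.22 and 0 in H3.3 G34W K27R. Rangrf and Amd1 also jumped within the H3.3 WT pair, Rangrf from 0 to 189 and Amd1 from 0.92 to 1016, so their values are uncertain.

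Markers of 2 other mesenchymal fates were read in the same libraries. Of 8 chondrocyte markers tested, 0 rose and 5 fell in H3.3 G34W K27R against H3.3 WT, beside 14.3% of all genes called, with a list median of -2.94 on the log2 scale against -0.01 for all genes. Those called were Col9a1, Comp, Hapln1, Matn3 and Sox6. Col9a1, Comp, Hapln1, Sox6 and Sox9 were also called lower in H3.3 G34W K36R and in H3.1 WT, where 17.1% and 33.4% of all genes were called. The fall was thus not particular to H3.3 G34W K27R. Col2a1, the main cartilage collagen gene, was not called in H3.3 G34W K27R against H3.3 WT (log2 fold change -3.19 ± 1.14, adjusted p = 0.0938). It was 4377 in H3.3 G34W replicate 1, 69620 in replicate 2, 5173 and 5547 in H3.3 G34W K27R, and 48840 and 48960 in H3.3 WT. Sox9 and Col10a1 changed little in that comparison (log2 fold changes -0.10 and 0.32) and were not called. Of 6 osteoblast markers tested, 3 rose and 1 fell in H3.3 G34W K27R against H3.3 WT, beside 14.3% of all genes called. Phex, a gene of mineral homeostasis in bone, was 675 in H3.3 G34W replicate 1, 35.3 in replicate 2, 927 and 916 in H3.3 G34W K27R, and 35.4 and 20.2 in H3.3 WT. Alpl, the alkaline phosphatase gene, was 57.3 and 96.2 in H3.3 G34W, 2.22 and 6.81 in H3.3 G34W K27R, and 52.3 and 45.5 in H3.3 WT. Col2a1, Phex and Alpl were chosen after their values were seen.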
